A study of Mus musculus with 12 samples.

Results

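A set of 35 genes of base excision, mismatch and end-joining repair was followed in 4T1 cells, a line from a mouse mammary carcinoma, that were starved of serine and glycine, irradiated, or both. The members are 35 of the 20587 genes in the table and were found by their gene symbol. One more row carried the symbol Pms2 but has the gene ID of Rsph10b, an overlapping neighbour on the same strand, and was left out. RNA-Seq was done in 4 groups of 3 libraries. IR -SG cells had neither amino acid in the medium and received 5 Gy of radiation. -SG cells had neither amino acid and no radiation, IR cells received 5 Gy in medium with both amino acids, and Ctr cells had both amino acids and no radiation. RNA was taken at 24 h. All groups came from the same cell line and no gene was edited. The libraries came from one experiment in biological triplicate, so p-values measure the spread between these cultures only.

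Base excision repair removes small base lesions. A DNA glycosylase cuts out the damaged base, an AP endonuclease opens the strand at the abasic site, PARP enzymes and the scaffold protein XRCC1 gather at the nick, and a polymerase and a ligase close the gap. Mismatch repair removes copying errors behind the replication fork, with MutS proteins that recognise the mispair and MutL proteins that direct its removal. Non-homologous end joining seals double-strand breaks, the most toxic lesions made by ionising radiation, through the Ku heterodimer, the kinase DNA-PKcs and the XRCC4-LIG4 ligase. Serine and glycine feed one-carbon metabolism, which supplies purines and the methyl group of thymidylate, and uracil enters DNA when thymidylate runs short.

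Values are normalized counts, that is, reads per gene divided by the size factor of the library. Reads in genes ranged from 12540160 to 20066659 per library, with a median of 16718006. Of 8 epithelial markers, 7 had at least 930 normalized counts in every library (Epcam between 3196 and 4314), and Krt5 had a median of 2.55. In -SG against Ctr, 6 of these 7 rose and 0 fell, with a median log2 fold change of 0.48, and their part in the results was not tested. Ptprc, Pecam1 and Cdh5, markers of leukocytes and endothelium, did not pass 10.6 normalized counts in any library, whereas Pdgfra, a fibroblast marker, had 179 to 468. Ctr replicates 1 and 3 held traces of transcripts of other cells. Col3a1, a fibroblast collagen, had 90.8 and 124.9 normalized counts there, against 5.31 in Ctr replicate 2 and at most 5.32 in any other library, and Lyz2, a myeloid lysozyme, had 45.4 and 83.6, against 2.13 in Ctr replicate 2. The part of these traces in the results was not tested directly, but the medians of the members against Ctr and the counts in the interaction were also taken with Ctr replicate 2 as the only Ctr library. -SG replicate 6 stood further from the other libraries of its group than any other library did, with a median absolute log2 difference of 0.154 over 14592 genes, against 0.0658 to 0.110 in the other 11 libraries.

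Promoters are shown for 4 members that have patterns described below, but their letters are not typical of the members that share these patterns. Ung had the deepest fall, Xrcc6 fell after each treatment, and Lig1 and Msh6 had a radiation effect that differed between the media. RefSeq promoters (GRCm38.p6, 250 bases before to 50 after each start) were matched by symbol for 30 of the 35 members, with 37 start sites. Apex2, Neil2, Polb, Poll and Prkdc were not among them. The plus strand holds all 4 genes shown, and capitals mark matches to the motifs that were searched on both strands.
Ung, chr5:114130185-114130484: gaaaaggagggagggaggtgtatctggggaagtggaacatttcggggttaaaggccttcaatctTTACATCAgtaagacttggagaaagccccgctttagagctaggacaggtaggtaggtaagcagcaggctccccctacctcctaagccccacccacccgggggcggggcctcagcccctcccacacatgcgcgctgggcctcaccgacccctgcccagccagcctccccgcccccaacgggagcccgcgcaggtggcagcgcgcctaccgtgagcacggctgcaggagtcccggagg
Xrcc6, chr15:82016119-82016418: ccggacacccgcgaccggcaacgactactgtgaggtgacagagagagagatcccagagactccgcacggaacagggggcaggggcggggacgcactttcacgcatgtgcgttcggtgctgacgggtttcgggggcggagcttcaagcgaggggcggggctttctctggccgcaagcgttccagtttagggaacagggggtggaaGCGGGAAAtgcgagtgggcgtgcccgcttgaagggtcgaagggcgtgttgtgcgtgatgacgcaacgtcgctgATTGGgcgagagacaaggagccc
Lig1, the second of its start sites, chr7:13278576-13278875: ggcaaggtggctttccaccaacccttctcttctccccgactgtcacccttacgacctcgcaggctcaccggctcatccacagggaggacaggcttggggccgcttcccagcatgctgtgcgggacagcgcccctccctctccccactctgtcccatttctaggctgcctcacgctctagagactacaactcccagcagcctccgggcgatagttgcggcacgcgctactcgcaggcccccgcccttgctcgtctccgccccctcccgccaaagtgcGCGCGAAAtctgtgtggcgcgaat
Msh6, chr17:87974800-87975099: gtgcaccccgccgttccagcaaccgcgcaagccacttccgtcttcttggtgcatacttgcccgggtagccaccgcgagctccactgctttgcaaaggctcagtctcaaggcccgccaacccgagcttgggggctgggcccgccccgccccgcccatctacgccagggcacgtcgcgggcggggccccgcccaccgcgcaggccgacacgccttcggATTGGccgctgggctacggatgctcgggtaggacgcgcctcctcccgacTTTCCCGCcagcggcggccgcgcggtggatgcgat

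The capitals in Ung are a match at -186 from the start to TGATGNAA, written for ATF4, a factor that cells use when amino acids run short. Those in Lig1 (+27), and the first in Xrcc6 (-46) and second in Msh6 (+16), are E2F letters (TTTCCCGC, TTTGGCGC or TTTCGCGC), written for the factors that drive S-phase genes. The other capitals in Xrcc6 (+28) and Msh6 (-34) are a CCAAT box. E2F letters stood in the promoters of 5 of the 30 members, or 16.7%, namely Lig1, Msh3, Msh6, Nthl1 and Xrcc6, against 2.12% of the 27025 genes with a promoter. In Msh3 the 2 E2F matches overlap each other. Xrcc6, Lig1 and Msh6 are thus among the few members with E2F letters. Tdp1, Apex1, Lig3, Parp1 and Pms1, which also fell after each treatment, held none. Mlh3, Lig3, Parp1 and Pms1, whose radiation effect also differed between the media, held none either, and Msh3 and Nthl1 passed no such test. The other start sites of Lig1 held none of the motifs searched, and a gene was counted if any of its start sites held a match. The ATF4 letters were found in 10.0% of members (Ung, Smug1 and Fen1) and 4.51% of all genes, CCAAT in 56.7% and 41.1%, TGACNNNGC (written for NRF2) in 10.0% and 14%, and the CHR letters (TTTGAA or TTCGAA) in 13.3% and 21.7%. A match describes letters in this window and is no evidence of binding.

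The members spanned a wide range of levels in Ctr cells. Per kb of merged exon, Parp1, the main sensor of strand breaks, had the highest level with 1055 ± 8.47 normalized counts per kb in Ctr (SD, n = 3), followed by Msh6 (860.3 ± 9.86), Lig1 (784.9 ± 22.7), Apex1 (693.2 ± 5.83) and Xrcc5 (608.9 ± 5.46). The lowest of the tested members was Dclre1c, the end-trimming nuclease Artemis, with 20.1 ± 0.590 normalized counts per kb. Along the order of the 34 members, 17 of the 33 pairs of neighbours overlapped in their Ctr libraries and 16 did not, and the 8 highest members were each apart from the next. With the length of the longest transcript in place of merged exons, 9 of the 10 highest members per kb were shared. Neil2, a glycosylase for oxidised bases, had 0 to 2.64 normalized counts in any library. It did not pass the minimum of 10 normalized counts in at least 3 libraries, and 34 members were tested.

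**Figure D1:**
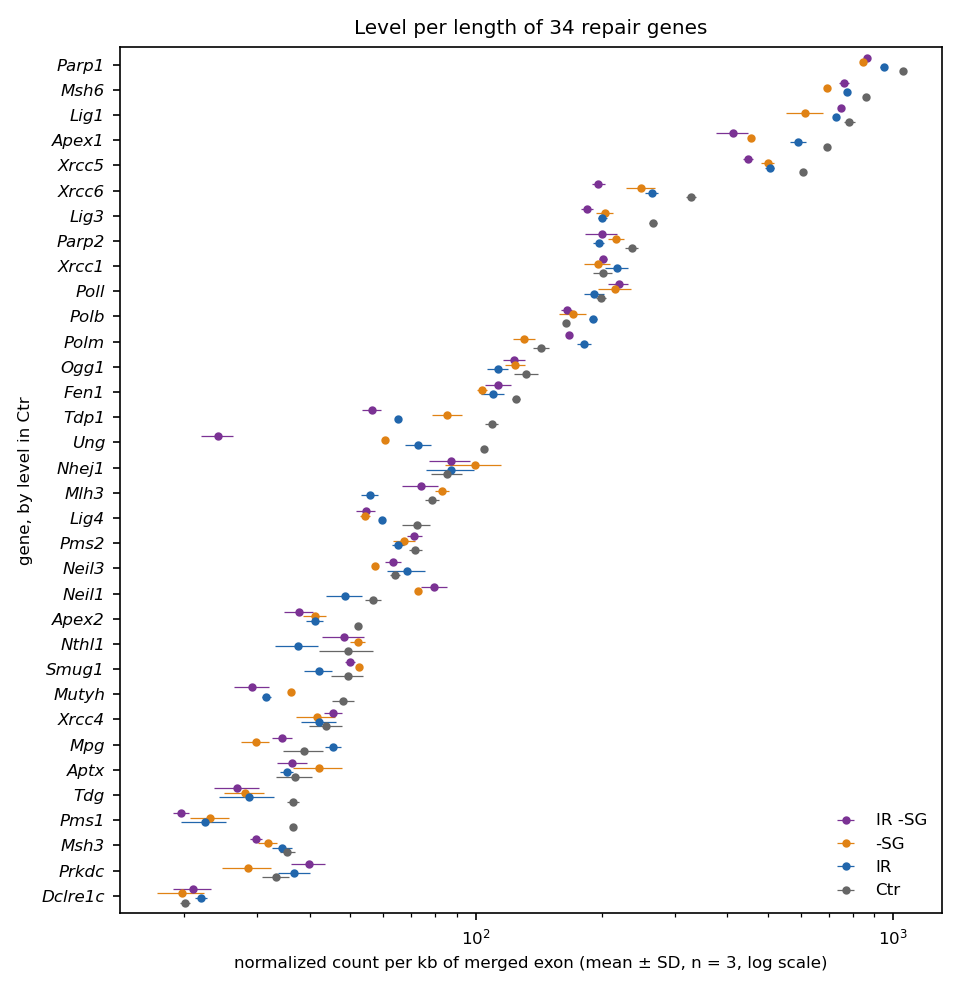
Level of each of the 34 tested members in normalized counts per kb of merged exon (log axis), with the mean and SD of 3 libraries for IR -SG, -SG, IR and Ctr. Genes run down the page from the highest to the lowest Ctr level, from Parp1 at 1055 to Dclre1c at 20.1, and Ung has the widest gap between its IR -SG and Ctr points.

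Most members that changed went down, in every comparison between groups. A gene was called changed at an adjusted p under 0.05, by limma over the 11663 tested genes with Benjamini-Hochberg adjustment. In IR -SG against Ctr, 15 of the 34 members (44.1%) fell and 3 (8.82%) rose, where 32.5% of all tested genes fell and 37.2% rose. In -SG against Ctr, 17 (50%) fell and 1 (2.94%) rose, beside 28.6% and 30% of all genes. In IR against Ctr, 19 (55.9%) fell and 2 (5.88%) rose, beside 24.9% and 28.9%. The median log2 fold change of the members was -0.12 in IR -SG, -0.19 in -SG and -0.21 in IR, each against Ctr, where the medians of all tested genes were 0.03, 0.01 and 0.00. The median in IR -SG was -0.070 with all libraries at the same total and -0.23 under quantile normalization. These 3 comparisons share the Ctr libraries and are therefore not independent of each other. Most of the changes were small. A called fall of at least 0.5 on the log2 scale was found for 7 members in IR -SG (11.4% of all genes), 3 in -SG (7.33%) and 4 in IR (1.59%). Normalized counts are relative to the other transcripts of a library and are not amounts per cell. In bulk RNA, a change of transcripts within each cell and a change in the share of cells that hold them cannot be told apart. Medians with Ctr replicate 2 as the only Ctr library are given in the last section. Without -SG replicate 6, again 17 members fell and 1 rose in -SG, but not all of them were the same genes. Msh3 lost its call (adjusted p = 0.154) and Parp2 gained one (-0.16, adjusted p = 0.0308).

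The remaining comparisons hold one treatment fixed. Between IR -SG and -SG, which gives the effect of radiation in starved cells, 7 members (20.6%) fell and 4 (11.8%) rose, beside 19.3% and 23.8% of all genes. Between IR -SG and IR, the effect of starvation in irradiated cells, 10 (29.4%) fell and 5 (14.7%) rose, beside 28.1% and 28.9%. In both, the share of members that fell was near that of all genes and the share that rose was below it. The libraries of IR -SG against -SG are all different from those of IR against Ctr. The 7 members that fell after radiation in starved cells (Apex1, Lig3, Mutyh, Tdp1, Ung, Xrcc5 and Xrcc6) were all among the 19 that fell after radiation in complete medium, which is 36.8% of that list. The 7 falls were 4 without IR -SG replicate 6 or without -SG replicate 5, where Apex1, Lig3 and Mutyh were lost. Likewise, 9 of the 10 members that fell on starvation in irradiated cells were among the 17 that fell on starvation without radiation (52.9% of the 17). The exception was Polb. Neither overlap was counted over all tested genes, of which 24.9% fell in IR and 28.6% in -SG against Ctr.

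**Figure D2:**
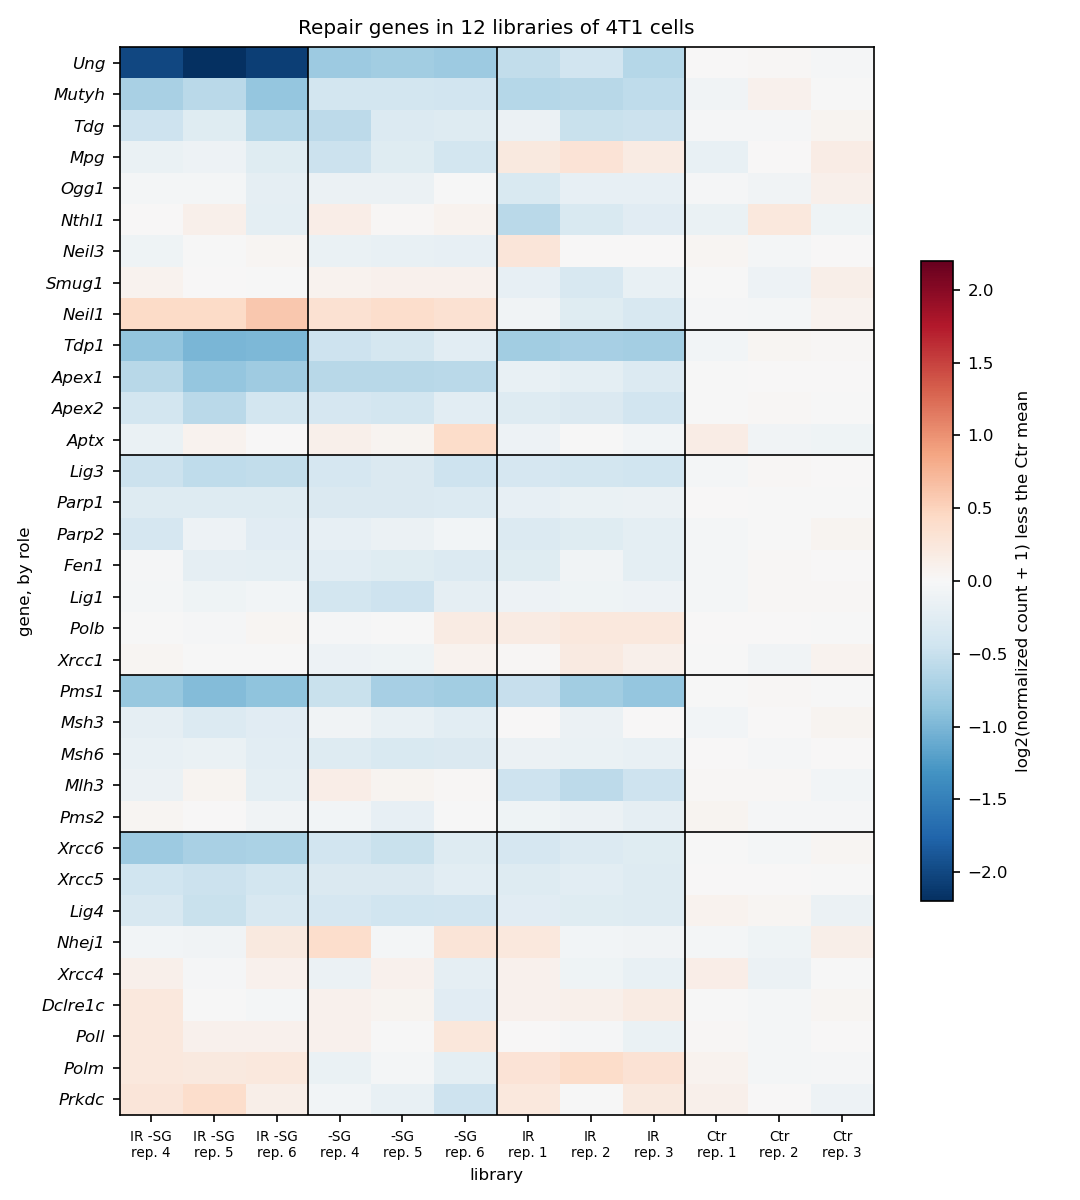
Heat map of log2(normalized count + 1) less the Ctr mean for the 34 tested members (rows, in 5 role groups separated by lines) in the 12 libraries (columns, IR -SG, -SG, IR and Ctr). Blue is lower and red is higher than Ctr. The darkest cells are the 3 IR -SG libraries of Ung, which fell by 2.11 on the log2 scale, and Neil1, Prkdc and Polm are among the few rows that are red in all 3 IR -SG libraries.

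The DNA glycosylases held the deepest fall of all members and also one of the few rises. Ung encodes the uracil-DNA glycosylase that removes uracil from DNA, and lies at chr5:114130386-114139323 on chromosome 5 (GRCm38). It had 142, 119 and 135 in IR -SG, 327, 337 and 328 in -SG, 395, 429 and 372 in IR and 573, 579 and 564 in Ctr. All 12 libraries sort by group without overlap, and the IR -SG libraries are lowest. Relative to Ctr, the level of Ung was 0.231 times in IR -SG, 0.579 times in -SG and 0.697 times in IR by the ratio of group means. The log2 fold change was -2.11 ± 0.07 (SE, adjusted p = 5.03e-13) in IR -SG, -0.79 ± 0.07 (SE, adjusted p = 1.32e-07) in -SG and -0.52 ± 0.07 (SE, adjusted p = 2.07e-05) in IR, each against Ctr. Ung also fell after radiation in starved cells, with -1.32 ± 0.07 (SE, adjusted p = 3.9e-09) in IR -SG against -SG, and after starvation in irradiated cells, with -1.59 ± 0.07 (SE, adjusted p = 3.84e-11) in IR -SG against IR. The sum of the single log2 effects was -1.31, and IR -SG fell below it by 0.80 on the log2 scale. All 6 calls of Ung remained under every alternative setting tried.

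Mutyh, the glycosylase that removes adenine opposite 8-oxoguanine, was the second of this group to fall after each treatment. It had 76.4, 83.3 and 68.9 in IR -SG, 94.5, 94.9 and 93.0 in -SG, 80.9, 81.5 and 84.6 in IR and 118, 134 and 125 in Ctr. Every Ctr library lay above every treated library. The log2 fold change was -0.72 ± 0.10 (SE, adjusted p = 1.05e-05) in IR -SG, -0.41 ± 0.10 (SE, adjusted p = 0.00259) in -SG and -0.60 ± 0.10 (SE, adjusted p = 0.000126) in IR against Ctr. Its fall in IR -SG against -SG (-0.31 ± 0.10 (SE, adjusted p = 0.0241)) was lost without any one of IR -SG replicates 4 and 6 and -SG replicates 4 and 5. This call was also lost by DESeq2 (adjusted p = 0.113, the highest of all alternatives), over all genes of the table and with only the groups compared in the fit.

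Neil1, a glycosylase for oxidised pyrimidines, went the other way in starved cells. It had 143, 143 and 161 in IR -SG, 134, 139 and 135 in -SG, 101, 88.1 and 83.5 in IR and 104, 103 and 112 in Ctr. The 6 starved libraries were all above the 6 libraries with serine and glycine. Neil1 was higher in IR -SG than in IR by 0.71 ± 0.10 (SE, adjusted p = 1.28e-05), the largest rise of any member, and higher than Ctr by 0.48 ± 0.10 (SE, adjusted p = 0.000351) in IR -SG and 0.35 ± 0.10 (SE, adjusted p = 0.00537) in -SG. Its change in IR against Ctr was -0.23 and did not pass (adjusted p = 0.0584). Under quantile normalization the rise of Neil1 in -SG was 0.18 and was no longer called (adjusted p = 0.127).

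Of the 9 tested glycosylases, 3 (33.3%) fell and 1 rose in IR -SG, 4 (44.4%) fell and 1 rose in -SG and 6 (66.7%) fell in IR, each against Ctr, where 32.5%, 28.6% and 24.9% of all genes fell. The share in IR -SG was thus near that of all genes. Tdg, the thymine-DNA glycosylase, fell in all 3, with log2 fold changes of -0.45, -0.39 and -0.36. Tdg is at 127 to 204 normalized counts. Its call in -SG was lost without -SG replicate 4, and that in IR without IR replicates 2 or 3 or Ctr replicate 3. With Ctr replicate 2 as the only Ctr library, its log2 fold changes were -0.43 in IR -SG, -0.36 in -SG and -0.34 in IR. Mpg, the alkyladenine glycosylase, fell on starvation both without radiation (-0.38 ± 0.10, SE) and with it (-0.40 ± 0.10). Smug1 and Nthl1, glycosylases for uracil and for oxidised pyrimidines, fell in IR against Ctr, with log2 fold changes of -0.23 and -0.39, and were higher in IR -SG than in IR by 0.25 and 0.37. Ogg1, the 8-oxoguanine glycosylase, passed the threshold in IR against Ctr alone, with -0.23. With Ctr replicate 2 as the only Ctr library, Smug1 had -0.11 and Ogg1 -0.15 in that comparison. The calls of Smug1, Nthl1 and Ogg1 in IR were each lost without at least 1 library. In IR against Ctr these were IR replicate 2 or Ctr replicate 3 for Smug1, IR replicate 1 or Ctr replicate 2 for Nthl1, and IR replicate 1 or Ctr replicate 3 for Ogg1. In IR -SG against IR, the call of Smug1 was lost without IR replicate 2 (0.19, adjusted p = 0.0587), and that of Nthl1 without IR -SG replicates 4 or 5 or IR replicate 1 (highest adjusted p = 0.0967). Neil3, a glycosylase of dividing cells, passed no test, with log2 fold changes between -0.16 and 0.14.

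The enzymes that process abasic sites and blocked ends mostly fell. Tdp1 encodes the phosphodiesterase that removes trapped topoisomerase I from DNA ends (gene at chr12:99884517-99955219). It had 476, 435 and 439 in IR -SG, 635, 667 and 745 in -SG, 514, 525 and 519 in IR and 835, 893 and 886 in Ctr. Ctr libraries were above all others, and IR -SG libraries were below all others. The log2 fold change was -0.95 ± 0.06 (SE, adjusted p = 7.72e-10) in IR -SG, -0.35 ± 0.06 (SE, adjusted p = 0.000112) in -SG and -0.74 ± 0.06 (SE, adjusted p = 5.47e-08) in IR against Ctr. Tdp1 also fell after radiation in starved cells, with -0.60 ± 0.06 (SE, adjusted p = 1.62e-06) in IR -SG against -SG. The difference in the radiation effect between media did not pass the threshold (interaction 0.15 ± 0.09 (SE, adjusted p = 0.301)).

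Apex1 encodes the main AP endonuclease, which cuts the strand at an abasic site (gene at chr14:50924968-50927139). It had 643, 543 and 571 in IR -SG, 647, 642 and 653 in -SG, 878, 844 and 803 in IR and 977, 994 and 986 in Ctr. Here the starved libraries were all below the libraries with serine and glycine, and the -SG and IR -SG ranges overlapped. Apex1 fell, with log2 fold changes of -0.75 ± 0.06 (SE, adjusted p = 6.71e-09) in IR -SG, -0.61 ± 0.06 (SE, adjusted p = 1.71e-07) in -SG and -0.23 ± 0.06 (SE, adjusted p = 0.00341) in IR against Ctr, and -0.53 ± 0.06 (SE, adjusted p = 1.16e-06) in IR -SG against IR. The fall in IR -SG against -SG (-0.15 ± 0.06 (SE, adjusted p = 0.0496)) was lost in 20 of 26 alternatives. That in IR against Ctr was lost with Ctr replicate 2 alone (adjusted p = 0.0549). Apex2, another AP endonuclease, had log2 fold changes of -0.47 in IR -SG, -0.34 in -SG and -0.34 in IR against Ctr, all called. Aptx, the aprataxin that removes adenylate from aborted ligations, had 195, 229 and 218 in IR -SG, 233, 226 and 286 in -SG, 201, 215 and 207 in IR and 242, 206 and 204 in Ctr, with overlap between all groups but IR and -SG, and passed none of the 6 tests.

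Among the genes of nick sensing, gap filling and ligation, Parp1 had the highest level per kb. It had 4568, 4601 and 4567 in IR -SG, 4469, 4461 and 4523 in -SG, 4904, 5044 and 5089.8 in IR and 5635, 5573 and 5549 in Ctr. Parp1 fell, with log2 fold changes of -0.29 ± 0.03 (SE, adjusted p = 2.11e-07) in IR -SG, -0.32 ± 0.03 (SE, adjusted p = 1.12e-07) in -SG and -0.16 ± 0.03 (SE, adjusted p = 0.0003) in IR against Ctr, with no overlap between Ctr and any treated group. These are small changes measured precisely at this depth. Parp2, its paralogue, fell in IR -SG (-0.24) and in IR (-0.26) against Ctr, while its change in -SG was -0.12 (adjusted p = 0.0939).

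Lig3, the ligase that works with XRCC1 in nick sealing, had 1394, 1320.1 and 1324 in IR -SG, 1489.7, 1551 and 1408 in -SG, 1497, 1469.9 and 1426 in IR and 1889, 1965 and 1951 in Ctr. The 3 Ctr libraries stood above the other 9. It fell, with log2 fold changes of -0.52 ± 0.04 (SE, adjusted p = 1.72e-08) in IR -SG, -0.38 ± 0.04 (SE, adjusted p = 1.19e-06) in -SG and -0.40 ± 0.04 (SE, adjusted p = 1.21e-06) in IR against Ctr. Its partner Xrcc1 had 1208, 1159.6 and 1162 in IR -SG, 1084, 1103 and 1236 in -SG, 1194, 1353 and 1262 in IR and 1169, 1118 and 1236 in Ctr. The ranges of all 4 groups overlapped, and Xrcc1 passed none of the 6 tests, with log2 fold changes between -0.11 and 0.11.

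Lig1, the ligase that joins Okazaki fragments and long repair patches, had 3235, 3142 and 3221 in IR -SG, 2523, 2428 and 2929.6 in -SG, 3095, 3137 and 3084 in IR and 3239, 3397 and 3415 in Ctr. The -SG libraries were lowest, and the IR -SG, IR and Ctr ranges lay close together but did not overlap. Lig1 fell in -SG against Ctr, with -0.36 ± 0.05 (SE, adjusted p = 2.42e-05), and was higher in IR -SG than in -SG by 0.29 ± 0.05 (SE, adjusted p = 0.000382). -SG replicate 6 was above the other -SG libraries, and without it the rise in IR -SG against -SG was 0.37. Polb, the polymerase of short-patch repair, rose in IR against Ctr by 0.21 ± 0.05 (SE, adjusted p = 0.00372) and was lower in IR -SG than in IR, with a log2 difference of -0.21 ± 0.05 (SE, adjusted p = 0.00341). Fen1, the flap endonuclease, fell in -SG (-0.27) and in IR (-0.18) against Ctr. The fall of Fen1 in IR was lost without any one of IR replicates 1 and 3 and Ctr replicates 1, 2 and 3. The exons of Fen1 overlap those of Tmem258 on the other strand, and Fen1 had a mean of 273 normalized counts over all libraries, against 1354 for Tmem258.

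Among the 5 mismatch repair genes, Pms1 (chr1:53189187-53297018) changed most against Ctr. Pms1, a MutL protein whose part in mismatch repair in mammals is minor, had 155, 142 and 149.5 in IR -SG, 196, 167 and 161 in -SG, 193, 162 and 153 in IR and 274, 279.5 and 273 in Ctr. The Ctr libraries lay close together and above all others, and the IR range overlapped those of IR -SG and -SG. Pms1 fell, with log2 fold changes of -0.89 ± 0.10 (SE, adjusted p = 4.8e-07) in IR -SG, -0.66 ± 0.10 (SE, adjusted p = 2.09e-05) in -SG and -0.71 ± 0.10 (SE, adjusted p = 1.56e-05) in IR against Ctr. In contrast, Pms2, the nuclease subunit of the main MutL complex, had 599, 586 and 552 in IR -SG, 555, 512 and 576 in -SG, 546, 530.3 and 509.5 in IR and 605, 571 and 568 in Ctr. It passed none of the 6 tests, and its largest log2 fold change between groups was -0.14 ± 0.06 (SE) in IR against Ctr. Its interaction, the radiation effect in starved cells minus that in complete medium, was 0.22 ± 0.08 (SE, adjusted p = 0.101), and passed without -SG replicate 6 (0.25, adjusted p = 0.0325).

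Msh6, the partner in the MutS complex that recognises single mispairs, had 3351, 3381 and 3202 in IR -SG, 3066, 2973 and 2992 in -SG, 3404, 3378 and 3337 in IR and 3751, 3691 and 3774 in Ctr. As for Lig1, the -SG libraries were below all others. Msh6 fell, with log2 fold changes of -0.31 ± 0.03 (SE, adjusted p = 5.15e-07) in -SG, -0.18 ± 0.03 (SE, adjusted p = 0.000165) in IR -SG and -0.15 ± 0.03 (SE, adjusted p = 0.00121) in IR against Ctr, and was higher in IR -SG than in -SG by 0.14 ± 0.03 (SE, adjusted p = 0.00315). Msh3, the partner in the MutS complex for larger loops, fell, with a log2 difference of -0.25 ± 0.07 (SE, adjusted p = 0.00293) in IR -SG against Ctr. Its fall in -SG (-0.16 ± 0.07 (SE, adjusted p = 0.0488)) was lost in 16 of 25 alternatives, one of them without -SG replicate 6 (adjusted p = 0.154). Mlh3, a MutL protein of meiotic crossing over, had 435, 398 and 430.4 in IR, against 607, 606 and 567 in Ctr. It fell in IR, with -0.49 ± 0.07 (SE, adjusted p = 1.67e-05), and was higher in IR -SG than in IR by 0.40 ± 0.07 (SE, adjusted p = 0.0001).

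**Figure D3:**
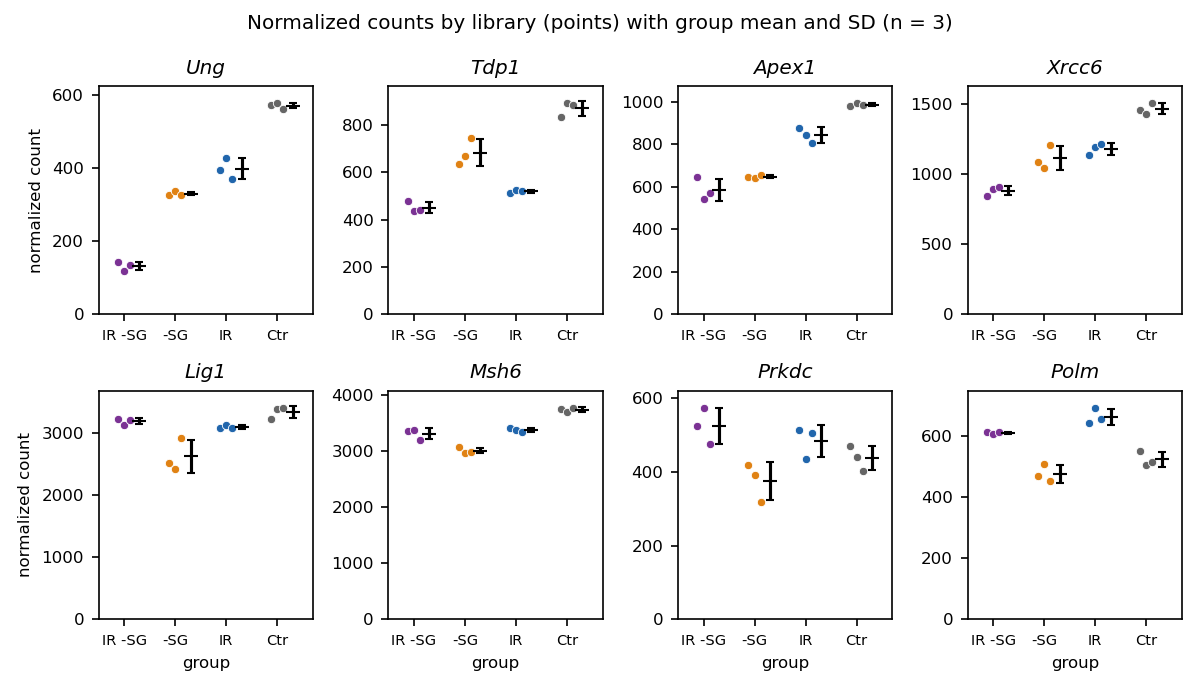
Normalized counts of 8 members in each library (points) with the group mean and SD (n = 3, with vertical axes from 0) for IR -SG, -SG, IR and Ctr. The 3 IR -SG libraries of Ung sit between 119 and 142, below all other groups, whereas Lig1 and Msh6 are lowest in -SG and Prkdc and Polm are higher in IR -SG than in -SG.

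In non-homologous end joining, both Ku genes fell in IR -SG, -SG and IR against Ctr. Xrcc6, which encodes the Ku70 subunit of the heterodimer that binds broken ends and lies at chr15:81987835-82040085, had 844, 891 and 906 in IR -SG, 1090.3, 1041 and 1211 in -SG, 1135, 1192 and 1215 in IR and 1459.6, 1429.6 and 1509 in Ctr. IR -SG libraries were below all others and Ctr libraries above all others. Xrcc6 fell, with log2 fold changes of -0.74 ± 0.05 (SE, adjusted p = 3.91e-09) in IR -SG, -0.40 ± 0.05 (SE, adjusted p = 9.34e-06) in -SG and -0.31 ± 0.05 (SE, adjusted p = 0.000153) in IR against Ctr, with -0.34 ± 0.05 (SE, adjusted p = 0.000126) in IR -SG against -SG and with -0.42 ± 0.05 (SE, adjusted p = 5.88e-06) in IR -SG against IR. The interaction was -0.03 ± 0.08 (SE, adjusted p = 0.872). Xrcc5, the Ku80 subunit, fell in the same 5 comparisons, with log2 fold changes between -0.44 (IR -SG against Ctr) and -0.15 (IR -SG against -SG).

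Prkdc encodes DNA-PKcs, the kinase that Ku recruits. It had 525, 575 and 476 in IR -SG, 418, 391 and 319.6 in -SG, 515, 436 and 505 in IR and 469.9, 441 and 404 in Ctr. IR -SG libraries were above all -SG libraries. Prkdc was higher in IR -SG than in -SG by 0.49 ± 0.10 (SE, adjusted p = 0.000905). Its rise in IR -SG against Ctr was 0.26 ± 0.10 (SE, adjusted p = 0.0275), and this call was lost without IR -SG replicates 4 or 5 or Ctr replicates 2 or 3, with Ctr replicate 2 alone, under quantile normalization and without the intensity trend (highest adjusted p = 0.162). Polm, a polymerase that fills gaps at joined ends, had 614, 609 and 614 in IR -SG, 471, 509 and 452 in -SG, 643, 694 and 656 in IR and 551, 507 and 515 in Ctr. The irradiated libraries were all above the non-irradiated ones. Polm rose after radiation by 0.34 ± 0.06 (SE, adjusted p = 0.000108) in IR against Ctr and by 0.36 ± 0.06 (SE, adjusted p = 0.000111) in IR -SG against -SG, and the interaction was 0.02 ± 0.08 (SE, adjusted p = 0.91).

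Lig4, the ligase of this pathway, had log2 fold changes of -0.40 in IR -SG, -0.41 in -SG and -0.27 in IR against Ctr, all called. Its partners Xrcc4 and Nhej1 (XLF) and the nuclease gene Dclre1c passed none of the 6 tests, with log2 fold changes between -0.22 and 0.21. These 3 genes had between 89.3 and 219.3 normalized counts in all libraries. Poll, a second gap-filling polymerase, was higher in IR -SG than in IR by 0.19 ± 0.07 (SE, adjusted p = 0.0264), a call lost without IR -SG replicate 4 or IR replicate 3. Of the 9 genes, 3 fell and 2 rose in IR -SG, 3 fell in -SG and 3 fell and 1 rose in IR, each against Ctr. Each 3 is 33.3% of the 9, near the 32.5% of all genes that fell in IR -SG, the 28.6% in -SG and the 24.9% in IR.

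Among the members, those of high level were more often called lower. The 10 members of highest normalized count in Ctr held 8 of the 15 falls in IR -SG, 8 of the 17 in -SG and 8 of the 19 in IR. They held 0 of the rises in these comparisons. Their median standard error was 0.05 on the log2 scale, against 0.08 for the other 24 members. Their median log2 fold change was -0.36 in IR -SG, -0.34 in -SG and -0.25 in IR against Ctr, and that of the other 24 was -0.02, -0.11 and -0.16. In the same order, the other 24 held 7, 9 and 11 falls and 3, 1 and 2 rises. Shares by level were not counted over all tested genes, so whether this is particular to the members was not tested.

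The radiation effect differed between the media for 8 members. The interaction, which is the radiation effect in starved cells (IR -SG against -SG) minus that in complete medium (IR against Ctr), passed for 6 members in the positive direction and 2 in the negative, beside 4.2% and 7.17% of all tested genes. For Lig1 and Msh6 it was 0.40 ± 0.07 (SE, adjusted p = 0.00248) and 0.29 ± 0.05 (SE, adjusted p = 0.00084). Both were higher in IR -SG than in -SG. In IR against Ctr, by contrast, Msh6 fell (-0.15) and Lig1 had -0.11 (adjusted p = 0.0922). This fall of Lig1 was called without -SG replicate 6 (adjusted p = 0.00368) and with only the groups compared in the fit (adjusted p = 0.00565). For Parp1 (0.19 ± 0.04), Lig3 (0.26 ± 0.06), Mlh3 (0.32 ± 0.10) and Pms1 (0.48 ± 0.14) the interaction was also positive. In this order, the log2 fold changes of these 4 genes were 0.03, -0.14, -0.17 and -0.23 in IR -SG against -SG, and -0.16, -0.40, -0.49 and -0.71 in IR against Ctr. The radiation effect of Ung was more negative in starved cells (-0.80 ± 0.10 (SE, adjusted p = 0.000124)). Polb had an interaction of -0.26 ± 0.08, with -0.05 in IR -SG against -SG and 0.21 in IR against Ctr. The interaction was positive for 25 of the 34 tested members and negative for 9, with a median of 0.17, where that of all tested genes was -0.01. The share of all tested genes with a positive value was not counted. A high Ctr value raises the interaction and lowers both IR and -SG against Ctr, so these results are not independent.

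The calls of Mlh3, Pms1 and Polb were lost in 11, 10 and 11 of 25 alternatives, among them several that left out a single library of IR -SG, IR or Ctr. With Ctr replicate 2 as the only Ctr library, 2 members passed in the positive direction and 1 in the negative. The interactions of Ung, Lig1 and Msh6 stayed past the threshold under every alternative tried.

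**Figure D4:**
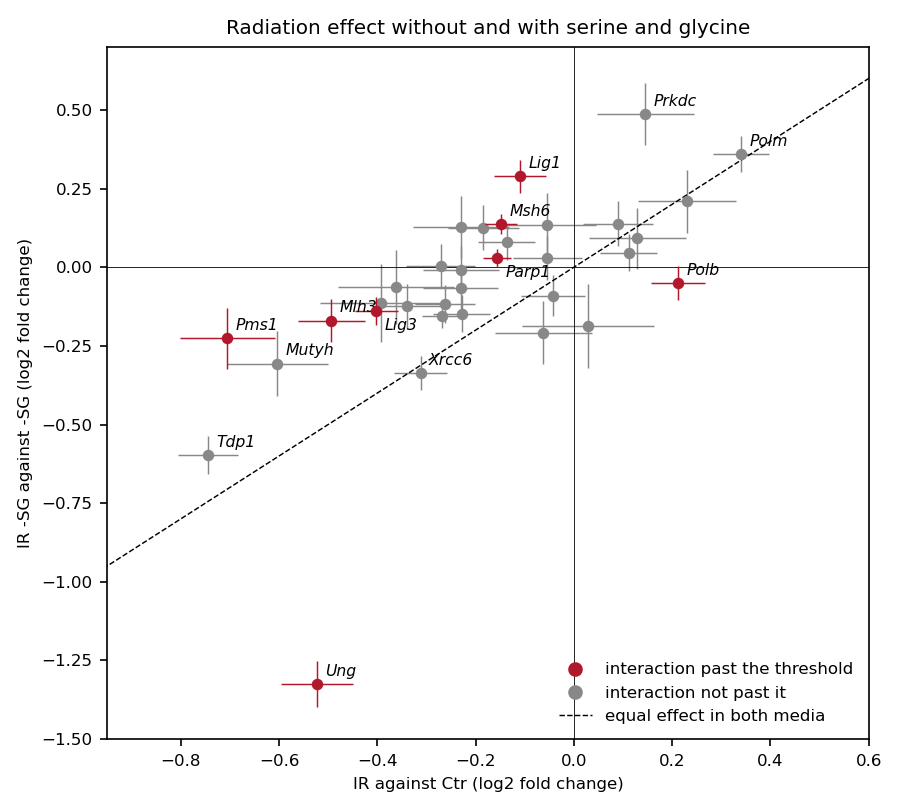
Log2 fold change (± SE) after radiation in starved cells (IR -SG against -SG, vertical axis) and in complete medium (IR against Ctr, horizontal axis) for the 34 tested members. The 8 members in red passed the interaction test. Ung lies far below the dashed line of equal effect, at -1.32 and -0.52, and Lig1, Msh6 and Pms1 lie above it.

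Other genes of the same pathways moved in both directions. Of 37 such genes, 36 were tested (Shld3 was not), and 16 fell and 7 rose in IR -SG against Ctr, where 32.5% of all genes fell and 37.2% rose. The largest falls were in Pold2 (-0.86 ± 0.04) and Pold3 (-0.48 ± 0.05), subunits of the replicative polymerase delta, in Rif1 (-0.46 ± 0.09), which limits resection of broken ends, and in Hmgb2 (-0.45 ± 0.05), a chromatin protein. Against this direction, Shld1 (0.80 ± 0.16), a subunit of shieldin, and Parp3 (0.67 ± 0.06), a PARP that acts at double-strand breaks, rose. In -SG against Ctr 16 (44.4%) fell and 5 (13.9%) rose, beside 28.6% and 30% of all genes, and in IR against Ctr 14 (38.9%) fell and 3 (8.33%) rose, beside 24.9% and 28.9%. In the interaction 6 (16.7%) passed in the positive direction and 0 in the negative, beside 4.2% and 7.17% of all genes. Among the 6 were Pcna (0.17 ± 0.04), the sliding clamp, and Polq (0.39 ± 0.10), the polymerase of a back-up joining route.

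Of 7 genes that clean the nucleotide pool, 2 changed most. Dut, the dUTPase that keeps uracil out of DNA, fell, with log2 fold changes of -0.89 ± 0.06 (SE, adjusted p = 1.23e-09) in IR -SG and -0.66 ± 0.06 (SE, adjusted p = 7.56e-08) in -SG against Ctr, and had -0.13 (adjusted p = 0.0848) in IR. Dctpp1, which hydrolyses dCTP, fell, with log2 fold changes of -1.24 ± 0.06 (SE, adjusted p = 4.44e-11) in IR -SG, -0.60 ± 0.06 (SE, adjusted p = 5.34e-07) in -SG and -0.45 ± 0.06 (SE, adjusted p = 2.19e-05) in IR against Ctr. Samhd1, a dNTP hydrolase, was higher in IR -SG (0.24 ± 0.03) and IR (0.32 ± 0.03) than in Ctr, and lower in -SG (-0.21 ± 0.03).

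Genes of DNA replication changed in part as the repair genes did. Of 40 such genes, 22 fell and 7 rose in IR -SG, 28 fell and 2 rose in -SG and 12 fell and 5 rose in IR, each against Ctr. The falls are 55%, 70% and 30% of the list, beside 32.5%, 28.6% and 24.9% of all genes, and the medians were -0.12, -0.26 and -0.05. In IR -SG against -SG, 19 (47.5%) rose and 9 (22.5%) fell, where 11.8% of the repair members and 23.8% of all genes rose. The interaction passed in the positive direction for 12 (30%) and in the negative for 1 (2.5%), beside 4.2% and 7.17% of all genes. Pcna, Rpa1, Rpa2 and Rpa3 are in this list and also among the other pathway genes above. Dna2, a replication nuclease and helicase, fell, with log2 fold changes of -1.87 ± 0.09 in IR -SG, -1.26 ± 0.09 in -SG and -0.87 ± 0.09 in IR. Tk1, the S-phase thymidine kinase, had -1.01 ± 0.05 in IR -SG, -0.76 ± 0.05 in -SG and -0.62 ± 0.05 in IR against Ctr. The share of cells in S phase was not measured in these libraries, and its part in the changes of the repair genes was not tested.

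Several members have exons that overlap a gene on the other strand, and the strand setting of the read counting is not given in the sources used here. Besides Fen1, examples are Apex1 (Pip4p1, a mean of 814 normalized counts against 765 for the member), Xrcc6 (Desi1, 1657 against 1160.3), Ogg1 (Camk1, 887 against 269) and Mpg (Nprl3, 502 against 139). Their part in the values was not tested.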

How the data were processed

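Libraries were made with the TruSeq stranded total RNA kit with RiboZero and read as 2 × 36 cycles. Per the labels, the tools were FastQC, HISAT2, TopHat, featureCounts, DESeq2 and R 3.3.1 on GRCm38. Other versions, and the strand setting of counting, were not given in the sources used here. Values deposited by the authors are DESeq2-normalized counts (a signal, with 1 size factor per library), and 100% of values came back to whole reads within 0.001. Genes were placed with GENCODE M21.

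Protein-coding genes that reached 10 normalized counts in 3 or more libraries (11663) were tested with limma 3.58.1 in R 4.3.3 on log2(normalized count + 1), with an intensity trend and all 4 groups fitted together (residual degrees of freedom 8, prior 7.93). Benjamini-Hochberg adjustment ran over these genes, with 0.05 as threshold, for 6 contrasts. The procedure was tested on simulated data. Alternatives were edgeR 4.0.16 and DESeq2 1.42.0 on recovered reads, pseudocounts, filters, scalings, no trend, all genes, only the groups compared, the replicate number as a block and leaving out each library. Ctr replicate 2 alone was chosen after seeing the data, and its fit assumes that this library varies like the other groups. Members called with a log2 fold change of at least 0.5 in any contrast, and the largest rise and fall of each role group in IR -SG against Ctr, are given per library. Parp1, Lig1, Msh6, Polm and Mlh3 were added after their values were seen. The members and lists were chosen with earlier results of these data known.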

Additional observations from a re-analysis of the deposited data

Results flagged for a closer look

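For 8 members the effect of radiation differed between the media by the interaction test of limma, with adjustment over 11663 genes. Each value is the log2 effect in starved cells (IR -SG against -SG) minus that in complete medium (IR against Ctr). Ung had -0.80 ± 0.10 (SE, adjusted p = 0.000124), from effects of -1.32 and -0.52. Polb had -0.26 ± 0.08 (adjusted p = 0.037), from -0.05 and 0.21. The positive values were 0.48 ± 0.14 for Pms1 (adjusted p = 0.0324), 0.40 ± 0.07 for Lig1 (0.00248), 0.32 ± 0.10 for Mlh3 (0.0393), 0.29 ± 0.05 for Msh6 (0.00084), 0.26 ± 0.06 for Lig3 (0.0107) and 0.19 ± 0.04 for Parp1 (0.00777). Groups of 3 libraries were not tested for single outlying values.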

How the results depend on the processing

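Over 204 values of a member in a contrast, 5162 alternative values were computed, of which 4968 kept their direction and side of the threshold, 131 lost a call, 63 gained one and 0 reversed. Of 91 called values, 65 stayed called in every alternative. Among member counts, the 1 rise in -SG against Ctr was 0 under quantile normalization. The 2 rises in IR were 4 when all libraries had the same total and 1 with Ctr replicate 2 alone. The 7 falls in IR -SG against -SG were 4 with only the groups compared in the fit. In the interaction, the 6 positive calls were 2 with Ctr replicate 2 alone, and the 2 negative calls were 1 over all genes of the table, by DESeq2, under the replicate block and with Ctr replicate 2 alone. The cause was not tested.

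The median of the members in -SG against Ctr (-0.19) was -0.16 for genes that averaged 100 normalized counts or more, -0.16 at the same total and -0.23 under quantile normalization. In IR (-0.21) it was -0.25 under quantile normalization and -0.15 with Ctr replicate 2 alone. In IR -SG (-0.12) it was -0.070 at the same total, -0.23 under quantile normalization and -0.16 with Ctr replicate 2 alone.

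Leaving out 1 library at a time gave 1 to 3 rises and a median of -0.23 to -0.15 in -SG against Ctr, 2 to 3 rises and a median of -0.22 to -0.17 in IR, 4 to 8 falls and a median of -0.062 to -0.016 in IR -SG against -SG, and 3 to 6 rises and a median of -0.104 to -0.054 in IR -SG against IR. The negative interactions were 1 to 2. Without -SG replicate 6, 10 calls were gained and 2 were lost over the 6 contrasts. The 3 rises in -SG came without -SG replicate 5, the 4 falls without IR -SG replicate 6 or -SG replicate 5, and the 3 rises in IR -SG against IR without IR -SG replicate 4.

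Under the replicate block, 19 members fell in IR against Ctr and 6 in IR -SG against -SG. Same-numbered libraries deviated together with r of 0.07, 0.03 and 0.04 in IR and Ctr, where each library of IR correlated best with its own number, and with 0.00, -0.08 and -0.09 in IR -SG and -SG, where none did. The labels do not say whether a number marks a shared culture. These correlations cannot decide it, because they are small, differ between the media and rest on deviations within groups of 3 libraries. edgeR counted 3 rises and 15 falls in IR -SG against Ctr, and DESeq2 the same numbers. Both also matched limma in -SG against Ctr. Elsewhere edgeR differed only in IR -SG against -SG, with 8 falls. DESeq2 counted 18 falls in IR against Ctr, 5 falls in IR -SG against -SG and 4 rises in IR -SG against IR. In the interaction it counted 5 positive calls and 1 negative.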
